A study of Mus musculus with 79 samples.

Results

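The hippocampus of APP/PS1 mice infused with a non-targeting control antisense oligonucleotide (ASO) was compared with that of APP/PS1 mice infused with phosphate-buffered saline (PBS). Both groups were taken from the labels and gave 19 of the 79 arrays of the series, 11 with control ASO and 8 with PBS. The mice were female and carried the APP and PS1 transgenes, which in this line are driven by a Thy1 promoter cassette active in neurons and lead to amyloid plaques. Control ASO was delivered at 75 µg per day from an osmotic pump that released 6 µL per day through a cannula in the right lateral ventricle, and PBS was delivered in the same way. Infusion began at 18 weeks of age and was to last 14 days. The left hippocampus was dissected 17 days after surgery, when the mice were about 20.5 weeks old, with the exception of PBS replicate 3, which was collected after 14 days. All animals had thus undergone surgery and were housed singly after it. The comparison asks what an oligonucleotide without an intended target does to hippocampal mRNA, which matters because the study uses control ASO as the partner of an ASO against Cd33, the gene of a sialic acid-binding receptor of microglia. Values from 9 hippocampal arrays with CD33 ASO and from 11 arrays of wild-type (WT) littermates given PBS are given where they place the result. Values from the frontal cortex of the same animals are used in the same way. CD33 ASO was given at the same daily dose as control ASO. Some of the 9 CD33 ASO animals were collected earlier than 17 days after surgery, and the comparisons with CD33 ASO keep them.

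ASOs are short, chemically modified DNA-like strands that enter cells by endocytosis and pass through endosomes and lysosomes before they meet RNA and recruit RNase H. Microglia, the resident macrophages of the brain, and the macrophages of its borders take up such material readily, and endosomal Toll-like receptors in them recognise nucleic acids. Astrocytes, oligodendrocytes and neurons take up ASOs as well.

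Signals are log2 values of background-corrected and quantile normalized bead array intensities, and a difference is control ASO minus PBS on that scale. A probe was called when its limma test over 14923 detected probes had a Benjamini-Hochberg adjusted p under 0.05, and "rose" and "fell" are used for called genes. The arrays of a group detected between 13244 and 14139 probes (control ASO) and between 13139 and 14380 probes (PBS), and their median signals were 17 to 22.9 and 17.1 to 26.6 intensity units. The groups were unevenly spread over the 5 slides. Slides 1 to 5 held 4, 2, 0, 5 and 0 control ASO arrays and 1, 2, 3, 0 and 2 PBS arrays, so that slides 1 and 2 alone held both groups, and 4145 of the 14923 probes differed between slides within groups. The comparison was therefore also fitted with slide as a fixed block, called the slide block here, a fit in which the CD33 ASO and WT arrays link the slides. Of the libraries labelled control ASO, 2 (replicates 1 and 10) had Thy1 signals of 13.97 and 13.83, neither above the top WT array at 14.03, where the remaining control ASO and PBS arrays lay at or above 14.51. These libraries also had low Cst7, a cystatin of microglia around plaques, at 5.72 and 6.54. Those values lay below the PBS arrays (6.88 to 8.16) but above the WT arrays (4.47 to 4.72). Counts are given with and without these libraries. CD33 ASO replicate 6 had low Thy1 (13.92) and low Cst7 (6.29) as well. Fits without the libraries with low Thy1 leave it out too, while the comparisons with CD33 ASO keep it.

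In 1 fit over all 4 hippocampal groups, 1698 of 14923 probes (11.4%) were called, 855 higher (5.73%) and 843 lower (5.65%) with control ASO. With slide as a fixed block 0.811% of probes were called, 64 higher (0.429%) and 57 lower (0.382%), and with slide as a random block 422 (2.83%), 223 higher (1.49%) and 199 lower (1.33%). The same direction was found under the fixed block for 99.4% of the 1698 called probes, and 0.744% of probes were called in both fits, 61 higher (0.409%) and 50 lower (0.335%). Both fits use the same arrays, so the shared direction is no separate check of the calls. With the control ASO and PBS arrays alone and slide as a fixed block, 1 probe was called. The standard error of a difference was larger by a median factor of 1.12 under the slide block. The split into 855 higher and 843 lower depended on the scaling, since centring the arrays on their medians instead of quantile normalization gave 1341 higher and 293 lower. Without the libraries with low Thy1 (2 with control ASO and 1 with CD33 ASO), 1232 probes (8.26%) were called. Of these, 648 were higher (4.34%) and 584 lower (3.91%), and under the slide block 80 probes were called. Without PBS replicate 7 the count was 1129 and without PBS replicate 8 it was 1131, both on slide 5. With 1 probe per gene, 11.9% of 10269 genes were called, 6.5% higher and 5.44% lower. Under the slide block 0.857% were called, 0.467% higher and 0.39% lower. Counted in this way, 82 genes were called in both fits, 45 higher and 37 lower. Each count of called list members below is to be read beside these shares of all genes. The control ASO arrays all lay above the PBS arrays for 30 probes (0.201% of those tested) and all below for 14 (0.0938%).

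**Figure D1:**
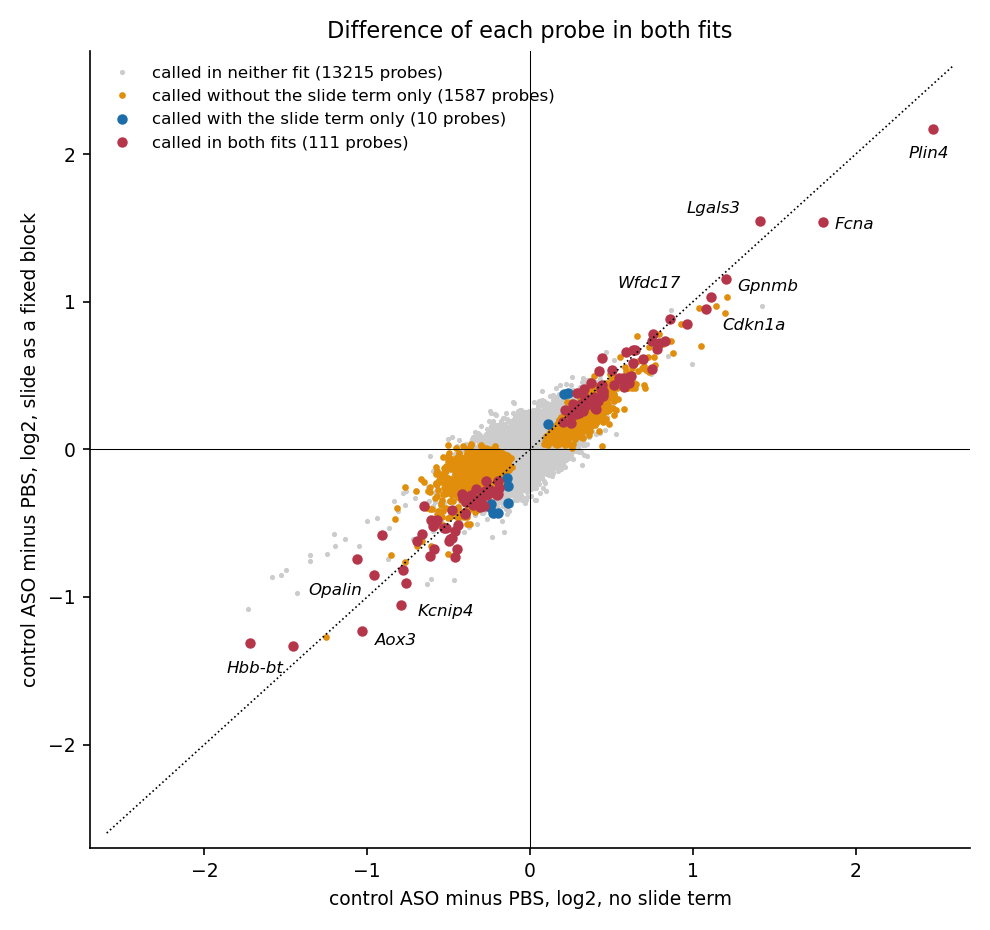
Difference between control ASO and PBS (log2) of each of the 14923 probes, without a slide term on the horizontal axis and with slide as a fixed block on the vertical axis, where the dotted line marks equal values. Probes called in both fits lie close to the line, with Plin4 (2.48 and 2.17) at the upper end and Hbb-bt (-1.72 and -1.31) at the lower end.

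Plin4, which encodes a perilipin that coats lipid droplets, had the largest rise. Its signal on the control ASO arrays had a lowest value of 6.95, a median of 9.30 and a highest value of 10.51, against 5.74, 6.69 and 7.52 on the PBS arrays. The groups overlapped through 1 control ASO array, replicate 7 on slide 4, which lay below the highest PBS array. The mean was 9.22 ± 1.12 (SD, n = 11) with control ASO and 6.75 ± 0.59 (n = 8) with PBS, a difference of 2.48 (SE 0.35, 5.57-fold, limma adjusted p = 2.43e-05). Under the slide block the difference was 2.17 (adjusted p = 0.00346), and within slides 1 and 2 it was 3.04 and 1.605.

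Fcna, the gene of ficolin A, a lectin of macrophages that starts the lectin pathway of complement, had the smallest p-value of the genes described here. Control ASO arrays had a lowest Fcna signal of 6.09, a median of 6.79 and a highest of 7.16, against 4.59, 4.89 and 5.14 with PBS. The groups lay apart by nearly 1 unit, and the probe was detected on 11 of 11 control ASO arrays but 3 of 8 PBS arrays. The difference was 1.80 (SE 0.14, adjusted p = 1.97e-12), and 1.54 under the slide block (adjusted p = 8.52e-09). It was 1.76 within slide 1 and 1.47 within slide 2.

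Lgals3 and Gpnmb encode galectin-3, a lectin that binds damaged endosomes and lysosomes, and a glycoprotein of lysosome-rich macrophages. Lgals3 ranged from 8.53 to 10.48 with a median of 9.01 in control ASO hippocampi, against 6.83 to 8.28 with a median of 7.74 in PBS hippocampi. Gpnmb ranged from 9.45 to 11.57 (median 9.86) with control ASO and from 8.56 to 9.10 (median 8.78) with PBS. Neither gene's groups overlapped, and the highest array of both genes was control ASO replicate 10, a library with low Thy1. The difference of Lgals3 was 1.41 (SE 0.25, adjusted p = 0.000363; 1.55 under the slide block, adjusted p = 0.00554), and without the libraries with low Thy1 it was 1.29. That of Gpnmb was 1.21 (SE 0.21, adjusted p = 0.000372; 1.15 under the slide block, adjusted p = 0.0204), and 1.05 without those libraries. A further Gpnmb probe of lower signal gave 0.73 (adjusted p = 0.0345; 0.281 under the slide block).

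Wfdc17, a small secreted protein gene of activated macrophages, ranged from 5.46 to 6.53 (median 6.11) with control ASO and from 4.77 to 5.07 (median 4.97) with PBS. The groups did not overlap, and the probe was detected on 11 control ASO and 3 PBS arrays. The difference was 1.11 (SE 0.16, adjusted p = 2.76e-05) and 1.03 under the slide block (adjusted p = 0.00463). Within slides 1 and 2 it was 1.04 and 1.23.

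**Figure D2:**
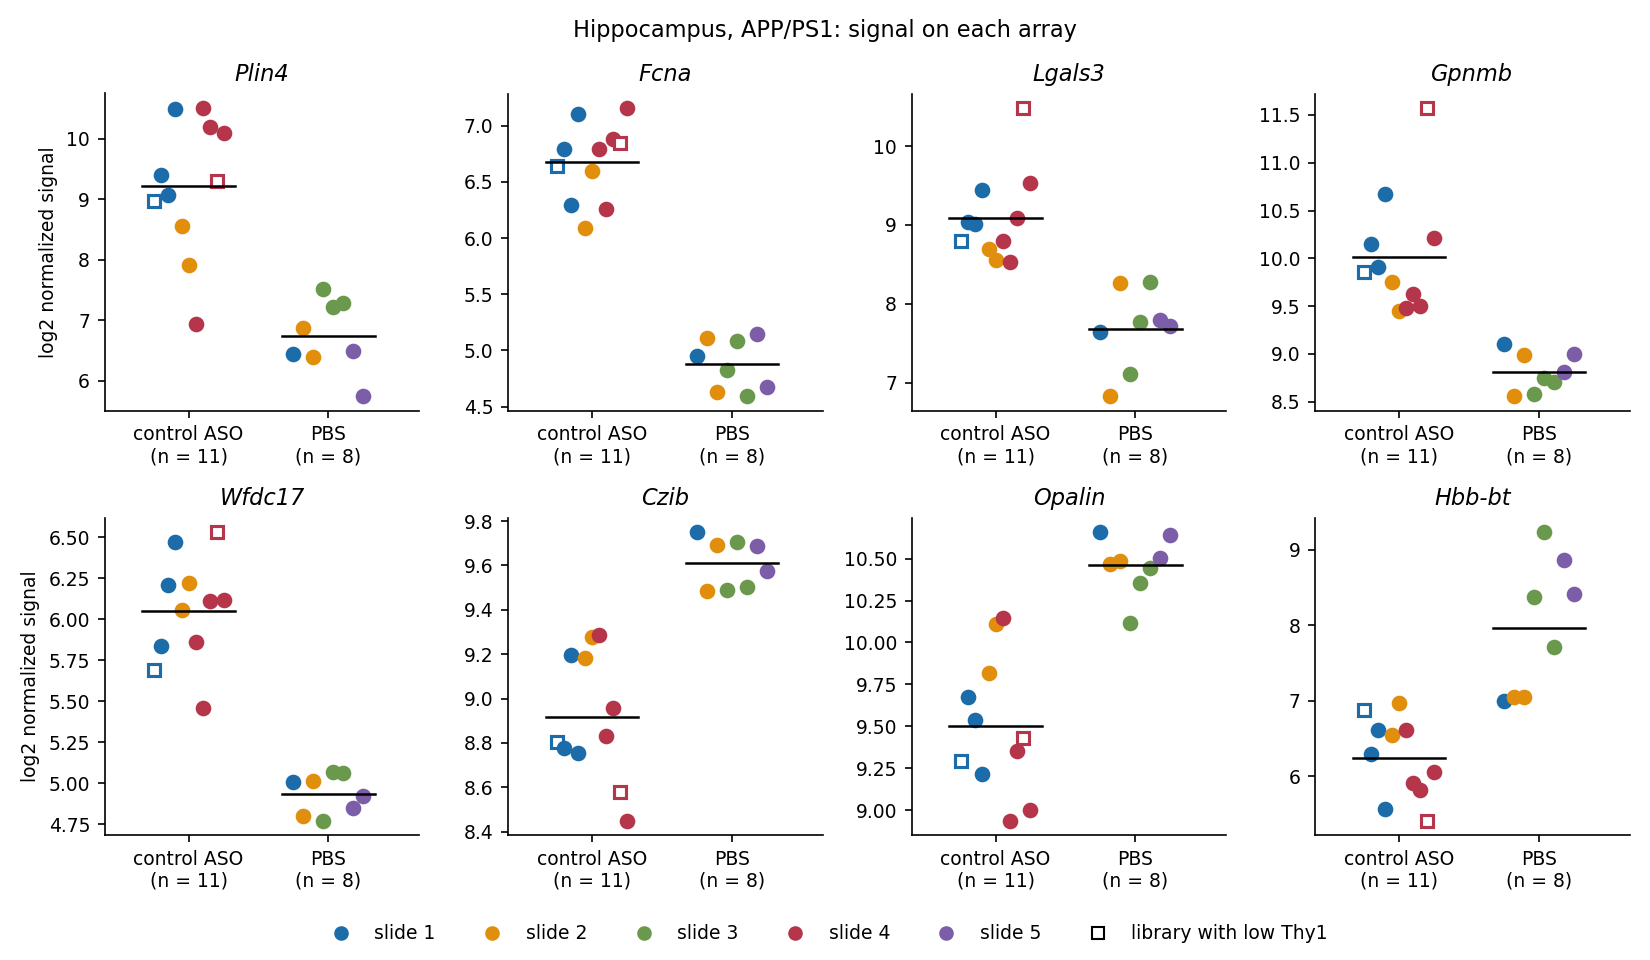
Log2 normalized signal of 8 genes on each control ASO array (left, n = 11) and each PBS array (right, n = 8) of the APP/PS1 hippocampus, coloured by slide, with the group mean as a line and open squares for the 2 libraries with low Thy1. The groups do not overlap for Fcna, Lgals3, Gpnmb, Wfdc17, Czib and Hbb-bt, and they overlap for Plin4 and Opalin.

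The further members of the phagosome and lysosome list followed Lgals3 and Gpnmb in part. Of 21 measured genes 8 rose and 0 fell, against 6.5% of all 10269 genes called higher and 5.44% called lower. They were Lgals3, Gpnmb, Hexa, Lyz1, Lyz2, Laptm5, Grn and Cyba, of which Lgals3, Gpnmb and Hexa, a lysosomal hexosaminidase subunit, also passed under the slide block (0.467% of all genes called higher and 0.39% lower). The median difference of the list was 0.26, and 0.18 under the slide block, beside 0.016 and 0.0033 over all genes. Lyz2, the lysozyme gene of myeloid cells, averaged 9.98 ± 0.70 with control ASO and 8.93 ± 0.30 with PBS (SD, n = 11 and 8), a difference of 1.05 (adjusted p = 0.00559; 0.277 under the slide block). Lyz1, whose sequence is close to that of Lyz2 so that their probes may share signal, differed by 0.87 (adjusted p = 0.00241; 0.128 under the slide block). The summed signal of the 21 genes was 27090 to 56648 on control ASO arrays and 25767 to 32412 on PBS arrays.

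In the list of markers of border macrophages, which line the meninges, vessels and choroid plexus, 3 of 7 measured genes rose and 0 fell. These were Fcna, Ms4a7 and Stab1, a scavenger receptor that also binds ASOs. Ms4a7 was 5.78 to 7.44 (median 6.41) with control ASO and 5.03 to 6.08 (median 5.35) with PBS, with overlap of the groups. It differed by 1.03 (SE 0.21, adjusted p = 0.00127), and under the slide block by 0.96 (adjusted p = 0.0612). Stab1 differed by 0.53 (adjusted p = 0.0151; 0.302 under the slide block). The defining markers Cd163, Lyve1, Pf4 and Siglec1 did not pass the detection filter. The summed signal of the 7 measured markers was 398 to 773 with control ASO and 321 to 401 with PBS. In bulk tissue, more cells of a type and more RNA per cell cannot be told apart.

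Complement and Fc receptor genes rose together, and they had the highest median of the lists described here. Of 10 measured genes 8 rose and 0 fell, with a median difference of 0.54 (0.41 under the slide block, 0.51 without the libraries with low Thy1). C1qa passed under the slide block as well, which makes 1 of 10. The genes C1qa, C1qb and C1qc encode the chains of C1q, the recognition molecule of the classical complement pathway, made in the brain mainly by microglia. C1qb was 11.51 to 12.61 (median 12.14) with control ASO and 10.94 to 11.57 (median 11.36) with PBS. These ranges touch at their ends, as 1 control ASO array lay below the highest PBS array. The difference was 0.69 for C1qb (SE 0.12, adjusted p = 0.000412; 0.0625 under the slide block), 0.66 for C1qc (SE 0.12, adjusted p = 0.000586; 0.0717 under the slide block) and 0.59 for C1qa (SE 0.14, adjusted p = 0.00577; 0.0389 under the slide block). Fcgr4, an activating receptor for IgG, had the largest difference of the list at 1.21 (SE 0.27, adjusted p = 0.00345; 1.03 under the slide block, adjusted p = 0.1), with 6.58 to 8.67 in control ASO and 5.45 to 7.27 in PBS hippocampi. Within slide 1 Fcgr4 differed by 0.57 and within slide 2 by 1.08. The inhibitory receptor gene Fcgr2b differed by 0.60 (adjusted p = 0.0146), with a further probe near 0.03, and Fcer1g, the shared signalling chain of Fc receptors, by 0.50 (adjusted p = 0.0199).

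The promoters of these co-changing genes are shown as context for the gene groups, since PU.1 is the lineage factor of microglia and macrophages. RefSeq promoters (GRCm38.p6) were found for 6 of the 8 called complement and Fc receptor genes, and the 250 bases before the start were searched on both strands for the PU.1-type motif GAGGAAGT. It was present in 2 of these 6 genes, C1qc and Fcgr4, and in 2.44% of 32851 promoter windows of the same length. C1qc lies at chr4:136892915-136893164 (minus strand) and Fcgr4 at chr1:171018676-171018925 (plus strand), and the capitals mark the motif, which in both windows stands on the opposite strand and is read as its reverse complement.
C1qc: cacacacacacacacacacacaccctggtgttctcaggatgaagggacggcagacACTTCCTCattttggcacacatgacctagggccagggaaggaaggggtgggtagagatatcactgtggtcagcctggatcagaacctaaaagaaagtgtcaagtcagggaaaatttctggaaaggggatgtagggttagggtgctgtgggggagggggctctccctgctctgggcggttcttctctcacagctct
Fcgr4: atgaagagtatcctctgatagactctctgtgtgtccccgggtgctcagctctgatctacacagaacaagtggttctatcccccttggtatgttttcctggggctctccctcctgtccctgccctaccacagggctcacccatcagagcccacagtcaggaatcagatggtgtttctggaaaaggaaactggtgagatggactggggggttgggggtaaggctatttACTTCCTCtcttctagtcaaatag
The motif begins 195 bases before the start in C1qc and 24 bases before it in Fcgr4. A match is a description of the letters and not a binding site.

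Of the genes that sense nucleic acids, 5 of 14 measured rose and 0 fell, with a median of 0.11 (0.13 under the slide block). Tlr7, the endosomal receptor for single-stranded RNA, had the largest difference and also passed under the slide block. It was 6.24 to 7.34 (median 6.81) with control ASO and 5.79 to 6.18 (median 6.01) with PBS, without overlap. The difference was 0.75 (SE 0.14, adjusted p = 0.000538; 0.73 under the slide block, adjusted p = 0.0204). Myd88, the adaptor of most Toll-like receptors, differed by 0.28 (adjusted p = 0.00347), Irf5, a transcription factor downstream of it, by 0.46 (adjusted p = 0.0251) and Unc93b1, the chaperone of endosomal Toll-like receptors, by 0.32 (adjusted p = 0.0429). Irf3 was the fifth. None of these 4 passed under the slide block, and a further Unc93b1 probe gave 0.15 (adjusted p = 0.537). Tlr9, the receptor for unmethylated CpG DNA, did not pass the detection filter. Tlr13 and Tlr2, receptors of bacterial RNA and lipoproteins, rose by 0.77 (adjusted p = 0.00205) and 0.69 (adjusted p = 0.0156), which did not pass under the slide block (0.172 and 0.31), and a further Tlr13 probe gave 0.07.

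Interferon response genes rose in 6 of 23 measured cases and fell in 0, with a median of 0.33 (0.26 under the slide block). Oas2, an RNA-sensing synthetase induced by interferon, was 4.79 to 6.13 (median 5.70) with control ASO and 4.77 to 5.14 (median 4.91) with PBS, the lowest control ASO array lying within the PBS range. It was detected on 10 of 11 control ASO and 2 of 8 PBS arrays and differed by 0.75 (SE 0.13, adjusted p = 0.000422; 0.78 under the slide block, adjusted p = 0.0104). Parp14 rose by 0.62, Ifitm3 by 0.53 and Ifit3 by 0.46 (adjusted p = 0.0016, 0.00422 and 0.026), and none of these 3 passed under the slide block. Further Ifit3 probes gave 0.05 and 0.16 (adjusted p = 0.863 and 0.468). Of the genes that signal through ITAM and ITIM motifs, the phosphotyrosine switches of myeloid receptors, 5 of 10 rose (Fcer1g, Plcg2, Ptpn6, Lat2 and Vav1) and 0 passed under the slide block. Their median was 0.32, and 0.30 under the slide block.

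Microglial genes of the homeostatic state and of the plaque-associated state were counted apart. Of the 17 homeostatic genes 5 rose and 0 fell (P2ry13, Tmem119, Mertk, Crybb1 and P2ry6), with a median of 0.27 (0.13 under the slide block), and Mertk alone passed under the slide block. Mertk, a receptor for the uptake of dying cells, was 8.83 to 9.41 (median 9.11) with control ASO and 8.41 to 8.76 (median 8.49) with PBS, without overlap. It rose by 0.58 (SE 0.09, adjusted p = 9.84e-05; 0.43 under the slide block, adjusted p = 0.0204). Tmem119 rose by 0.58 (SE 0.12, adjusted p = 0.0014; 0.0553 under the slide block), and P2ry12 differed by -0.03 (95% interval -0.38 to 0.31, adjusted p = 0.926). Of the 25 plaque-associated genes 4 rose (Gpnmb, Lgals3, Lyz2 and Timp2) and 1 fell (Csf1, by 0.40, adjusted p = 0.00637; -0.30 under the slide block, adjusted p = 0.251), with a median of 0.07 (0.12 under the slide block). Of these 5, Gpnmb and Lgals3 passed under the slide block. Defining members of that state did not pass the test. Trem2 differed by 0.30 (95% interval 0.01 to 0.59, adjusted p = 0.168), Tyrobp by 0.20 (-0.10 to 0.51, adjusted p = 0.4), Clec7a by 0.18 (-0.13 to 0.49, adjusted p = 0.477) and Cst7 by -0.09 (-0.58 to 0.41, adjusted p = 0.855). Without the libraries with low Thy1 the difference of Trem2 was 0.41 (adjusted p = 0.0455) and that of Cst7 was 0.21 (adjusted p = 0.477). Cd33 itself was 6.15 to 7.16 (median 6.42) with control ASO and 5.62 to 6.55 (median 6.26) with PBS, a difference of 0.29 (SE 0.11, adjusted p = 0.0798; 0.18 under the slide block).

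Most markers of other immune cells did not pass the detection filter. Of 14 markers of monocytes and neutrophils 3 were measured and 0 were called, and Ccr2, Ly6c2, S100a9 and Ly6g were among those that did not pass the filter. The granulocyte receptor gene Csf3r was detected on all arrays of both groups, with means of 5.90 with control ASO and 5.84 with PBS. The summed signal of the 3 was 99.8 to 190 with control ASO and 114 to 196 with PBS. Of 15 lymphocyte markers 2 were measured and 0 called, with a summed signal of 55.5 to 77.6 with control ASO and 49.7 to 81 with PBS. Among the MHC class II genes 0 of 6 were called.

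Genes induced by glucocorticoids rose next to Plin4. Of 15 measured genes of this list 8 rose and 0 fell (Fkbp5, Sgk1, Plin4, Angptl4, Pdk4, Mt1, Sult1a1 and Errfi1). The median was 0.32, and 0.30 under the slide block. Of these 8, Plin4 and Sult1a1 alone also passed under the slide block. That fit called 3 of the 15 higher, so it also called a gene that had not risen without it. Without the libraries with low Thy1, 7 rose. Sult1a1, a sulfotransferase, was 8.84 to 10.03 (median 9.41) with control ASO and 8.21 to 9.23 (median 8.62) with PBS. The groups overlapped, and the difference was 0.83 (SE 0.15, adjusted p = 0.000635; 0.74 under the slide block, adjusted p = 0.0107). Angptl4, a secreted inhibitor of lipoprotein lipase, was 6.81 to 8.79 (median 7.68) with control ASO and 6.39 to 6.98 (median 6.78) with PBS, and rose by 0.93 (SE 0.20, adjusted p = 0.00208; 0.0656 under the slide block). Sgk1, a kinase of ion transport and stress, rose by 0.63 (SE 0.13, adjusted p = 0.00171; 0.0612 under the slide block). Within slides 1 and 2 Sgk1 differed by 0.82 and 0.15.

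The promoters of the glucocorticoid list were searched for the glucocorticoid receptor-type motif, the letters GNACA and TGTNC with 3 bases between them, on both strands. Promoters were found for 7 of the 8 called genes, and Mt1 and Sgk1 held the motif in the 250 bases before a start. These 7 genes have 13 windows between them, so that this count per gene cannot be set directly against the 0.387% of all 32851 windows that hold the motif. That of Mt1, a metal-binding protein of astrocytes, is shown as the example. It lies at chr8:94178839-94179088 (plus strand), and the motif, in capitals, begins 94 bases before the start.
Mt1: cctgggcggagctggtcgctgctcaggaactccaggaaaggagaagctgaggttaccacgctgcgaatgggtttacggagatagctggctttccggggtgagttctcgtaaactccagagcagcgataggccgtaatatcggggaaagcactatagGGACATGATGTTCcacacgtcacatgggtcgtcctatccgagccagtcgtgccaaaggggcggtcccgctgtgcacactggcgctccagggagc
No match in the other windows says only that these letters are not there.

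Cdkn1a, the gene of the cell cycle inhibitor p21, rose on each of its 3 probes, of which 2 passed under the slide block. The brightest probe was 7.24 to 9.36 (median 8.26) with control ASO and 6.77 to 7.30 (median 7.03) with PBS. The spread was wide with control ASO, whose highest array was replicate 1 with low Thy1 and whose lowest values overlapped the PBS range. The difference was 1.08 (SE 0.19, adjusted p = 4e-04; 0.95 under the slide block, adjusted p = 0.0204), and 0.93 (adjusted p = 0.00137) without the libraries with low Thy1. Within slide 1 it was 1.42 and within slide 2 it was 0.30. The other probes gave 0.97 and 0.66 (adjusted p = 0.000372 and 0.0191; 0.0274 and 0.113 under the slide block). Of 19 measured p53 targets 4 rose (Cdkn1a, Ccng1, Gadd45a and Fas) and 1 fell (Bbc3), with a median of 0.10 (0.02 under the slide block), and Cdkn1a was the 1 that passed under the slide block. Further probes gave 0.18 for Gadd45a and 0.09 for Fas (adjusted p = 0.329 and 0.701). Those of Bbc3 gave -0.30 and 0.19 (adjusted p = 0.113 and 0.297).

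Further genes that rose in both fits included Lrrc8a, a subunit of the volume-regulated anion channel, by 0.79 (SE 0.12, adjusted p = 7.34e-05; 0.72 under the slide block, adjusted p = 0.00799). A further Lrrc8a probe gave -0.05 (adjusted p = 0.778). Xdh, xanthine dehydrogenase, rose by 0.69 (adjusted p = 0.00124; 0.0407 under the slide block) and the crystallin gene Cryba4 by 0.65 (adjusted p = 0.00192; 0.0198 under the slide block). Etnppl, an astrocytic phospholyase, and Cyp4f18, a cytochrome of myeloid cells, rose by 0.81 (adjusted p = 0.0113) and 1.14 (adjusted p = 0.00541), without passing under the slide block (0.191 and 0.175). Cyp4f18 was detected on 11 of 11 control ASO arrays but 4 of 8 PBS arrays, so its PBS mean of 4.91 lies near background and the size of its difference is uncertain. Ms4a6d, a microglial membrane protein gene, rose by 1.19 (adjusted p = 0.00052; 0.0802 under the slide block), with a dimmer probe at 0.52 (adjusted p = 0.079).

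Of 18 genes of reactive astrocytes 6 rose (Serpina3n, Cd44, Aspg, Stat3, Socs3 and Cd109), 0 fell and 0 passed under the slide block. The median was 0.33, and 0.30 under the slide block. Without the libraries with low Thy1, 2 rose and the median was 0.22. In that set Serpina3n, an acute-phase protease inhibitor, differed by 0.36 (adjusted p = 0.0628), against 0.49 (adjusted p = 0.0244) with them. Socs3, an inhibitor of cytokine signalling, differed by 0.65 (adjusted p = 0.0316), and by 0.36 (adjusted p = 0.127) without the libraries with low Thy1. The 2 of them with control ASO had the highest Socs3 values of their group. Socs3 also lost its call without control ASO replicate 1 or 10 alone, or without PBS replicate 4, 5 or 7. Gfap, the intermediate filament of astrocytes, was 9.57 to 11.30 (median 10.03) with control ASO and 9.50 to 10.26 (median 9.79) with PBS, and its difference of 0.25 (95% interval -0.06 to 0.56) had an adjusted p of 0.297. Of 13 genes of astrocyte identity 2 rose, Fgfr3 and Atp1b2, and neither passed under the slide block (adjusted p = 0.6 and 0.0809).

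**Figure D3:**
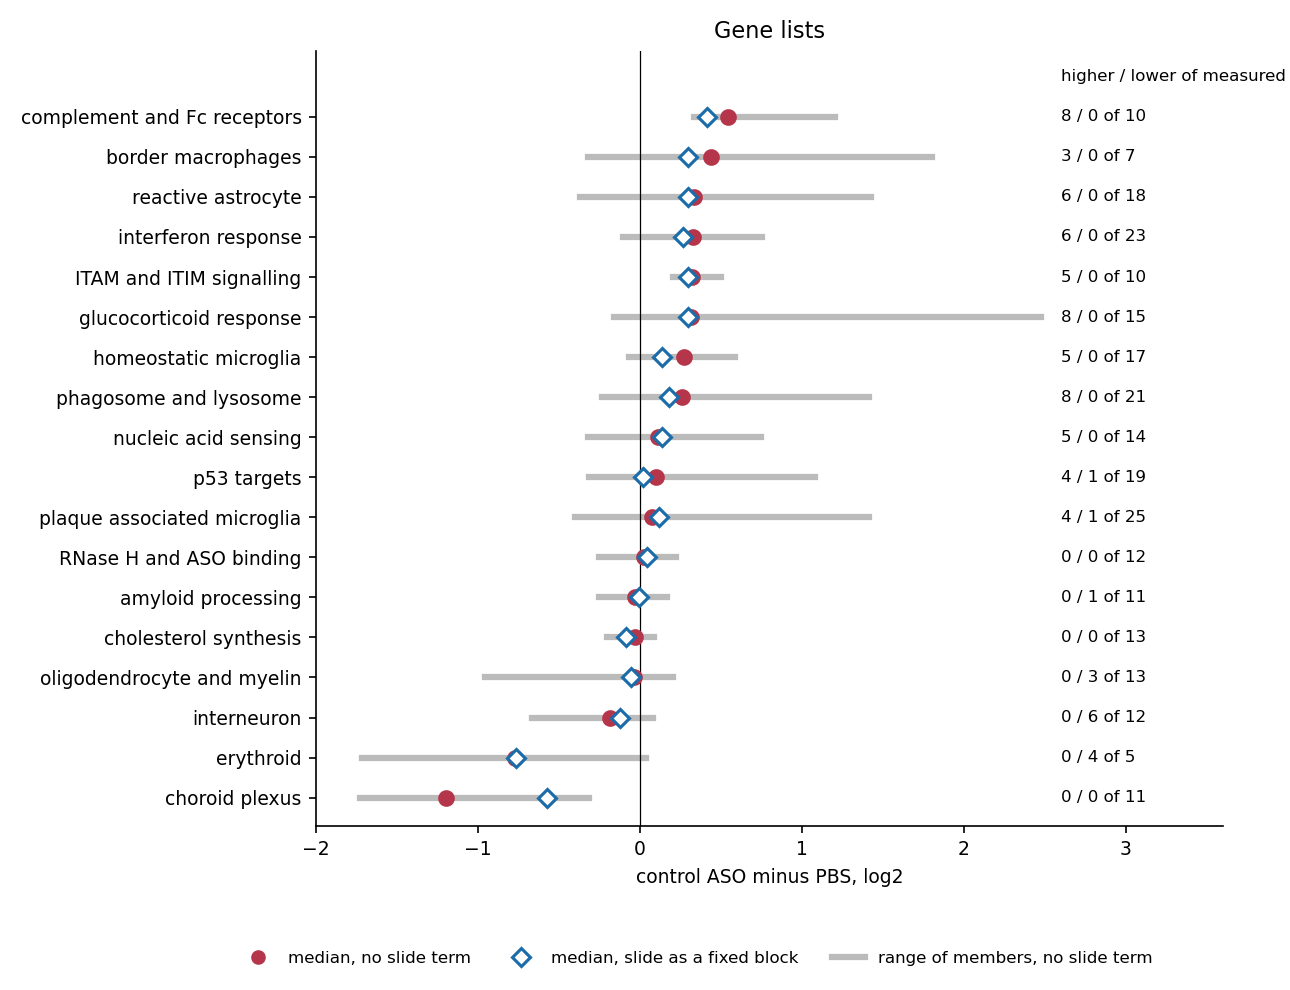
Difference between control ASO and PBS (log2) for 18 gene lists, with the median of each list without a slide term (filled circles), its median with slide as a fixed block (open diamonds) and the range of its members without a slide term (grey bars). The numbers at the right count the members called higher and lower among those measured, from 8 and 0 of 10 for complement and Fc receptors to 0 and 0 of 11 for choroid plexus.

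Among the falls, Czib had the smallest p-value. This gene, also known as a CXXC-motif zinc-binding protein, is of little-known function. Its brighter probe was 8.45 to 9.29 (median 8.83) with control ASO and 9.48 to 9.75 (median 9.63) with PBS. No control ASO array reached the lowest PBS array. The difference was -0.69 (SE 0.08, adjusted p = 9.01e-08; -0.62 under the slide block, adjusted p = 0.000181), and -0.87 and -0.36 within slides 1 and 2. A second Czib probe had means of 7.11 with control ASO and 8.56 with PBS, a difference of -1.46 (SE 0.13, adjusted p = 1.3e-10; -1.33 under the slide block, adjusted p = 8.52e-09). Both probes fell, by unequal amounts.

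Several genes of oligodendrocytes fell, while most of the myelin list was not called. Opalin, a transmembrane protein of myelinating oligodendrocytes, was 8.94 to 10.15 (median 9.43) with control ASO and 10.12 to 10.66 (median 10.48) with PBS. The groups met at a single control ASO array. Opalin fell by 0.96 on the log2 scale (SE 0.14, adjusted p = 5.24e-05; -0.85 under the slide block, adjusted p = 0.00388), with -1.23 and -0.51 within slides 1 and 2. Pllp, a membrane protein of myelin, was 7.99 to 8.85 (median 8.27) with control ASO and 8.91 to 9.15 (median 9.03) with PBS, without overlap. It differed by -0.67 (SE 0.10, adjusted p = 4.88e-05; -0.57 under the slide block, adjusted p = 0.00736). Ninj2, an adhesion molecule of glia, fell by 0.78 (SE 0.12, adjusted p = 5.11e-05; -0.82 under the slide block, adjusted p = 0.000899). Enpp6, a marker of newly forming oligodendrocytes, fell by 0.61 (adjusted p = 0.00826; 0.0876 under the slide block). It was the 1 called gene of 10 measured in the list of oligodendrocyte precursors, whose median was -0.05. Pllp and Ninj2 belong to neither that list nor the myelin list.

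Of the 13 measured genes of the oligodendrocyte and myelin list 3 fell and 0 rose, Opalin, Cnp and Mag, and Opalin also passed under the slide block. Cnp and Mag differed by -0.21 and -0.20 (adjusted p = 0.0355 and 0.0491), values that leaving out single arrays moved past the threshold in 8 and 15 of 19 cases. The list's median was -0.04, and 0.06 with median centring of the arrays, beside 0.016 and 0.078 over all genes. Without the libraries with low Thy1 Opalin alone of these 3 was called. Krt12, a keratin gene, and Tmem125 fell in both fits as well. Krt12 was 7.35 to 7.72 (median 7.47) with control ASO and 7.86 to 8.40 (median 8.10) with PBS, without overlap, and differed by -0.59 (SE 0.09, adjusted p = 0.000115; -0.67 under the slide block, adjusted p = 0.000329). Tmem125 fell by 0.52 (adjusted p = 0.000163; 0.00403 under the slide block).

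Aox3, an aldehyde oxidase, and Maf, a transcription factor of macrophages and neurons, fell close to the detection limit. Aox3 was 4.94 to 6.31 (median 5.71) with control ASO and 6.18 to 7.14 (median 6.82) with PBS, and was detected on 9 of 11 and 8 of 8 arrays. It differed by -1.03 (SE 0.20, adjusted p = 0.000802; -1.23 under the slide block, adjusted p = 0.00554). Maf was 4.70 to 6.07 (median 4.96) with control ASO and 5.79 to 6.14 (median 6.07) with PBS, and was detected on 5 of 11 and 8 of 8 arrays. Its difference was -0.91 (SE 0.15, adjusted p = 0.000255; -0.58 under the slide block, adjusted p = 0.0365), and -0.87 and -0.17 within slides 1 and 2.

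Genes of red blood cells had the lowest median among the lists with called members. Of 5 measured genes 4 fell (Hba-a1, Hbb-bt, Alas2 and Slc4a1), with a median of -0.77, and -0.77 under the slide block. Of these 4, Hbb-bt alone passed under the slide block, and the list's median within slides 1 and 2 was -0.53 and -0.07. Hbb-bt, a beta-globin, was 5.41 to 6.97 (median 6.29) with control ASO and 7.002 to 9.23 (median 8.04) with PBS. The groups did not overlap, but the gap was narrow and the 3 PBS arrays of slides 1 and 2 were the lowest of their group, at 7.002 to 7.05. The difference was -1.72 (SE 0.29, adjusted p = 0.000213; -1.31 under the slide block, adjusted p = 0.0312), and within slides 1 and 2 it was -0.67 and -0.29. Alas2, the first enzyme of haem synthesis in erythroid cells, differed by -1.25 (adjusted p = 0.00453; 0.0825 under the slide block) and by -0.72 and -0.01 within those slides. Other beta-globin genes did not pass the filter here, and globin probes may share signal between near-identical genes. The summed signal of the 5 genes was 4648 to 13911 with control ASO and 9116 to 27126 with PBS, and the part of residual blood in the tissue was not tested.

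Both cold-inducible RNA-binding protein genes fell. Rbm3 was 9.76 to 11.16 (median 10.31) with control ASO and 10.82 to 11.68 (median 11.32) with PBS, with overlap. It differed by -0.76 (SE 0.15, adjusted p = 0.00127; -0.91 under the slide block, adjusted p = 0.00414), while a probe near background gave -0.01. Cirbp was 8.46 to 9.36 (median 8.91) with control ASO and 9.22 to 9.99 (median 9.50) with PBS. It differed by -0.53 (SE 0.11, adjusted p = 0.0026; -0.54 under the slide block, adjusted p = 0.0407). Of the heat shock genes in the same list, Hspa1a, Dnajb1 and Bag3 rose, by 0.28 for Hspa1a (adjusted p = 0.0263) and 0.47 for Bag3 (adjusted p = 0.0297), and 0 of them passed under the slide block.

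Falls were also described by gene length. Gene lengths came from the RefSeq table (GRCm38.p6) and were found for 10265 of 10269 genes. Genes over 300 kb made up 2.94% of all genes tested (302), 6.44% of the 559 called lower (36) and 0.75% of the 667 called higher (5). Of the 37 genes called lower in both fits, 7 were over 300 kb (18.9%), against 0 of the 45 called higher in both. Of the 84 genes over 600 kb, 14.3% were called lower and 1.19% higher, and 5.95% were called lower under the slide block, against 5.44%, 6.5% and 0.39% of all genes. Genes under 10 kb were called lower at 6.84%, also above the share of all genes, and the median length of the genes called lower was 16.6 kb, against 21.7 kb over all genes. The median difference over 600 kb was -0.07 (-0.08 under the slide block). The pattern was also seen with CD33 ASO, whose comparison uses the same PBS arrays and is therefore no separate test of it. With CD33 ASO against PBS 19% of the genes over 600 kb were called lower, against 1.94% of all probes, a share not counted per gene. In the direct test of control ASO against CD33 ASO 0 of these genes were lower and 7.14% higher, against 1.8% and 1.73% of all probes. These shares are a description of the genes on the array, which are not independent of each other.

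The 7 long genes that fell in both fits were named after their values had been seen, apart from Kcnip4 and Wwox. Kcnip4, a subunit of neuronal potassium channels whose gene spans 1135620 bp, was 5.86 to 7.13 (median 6.66) with control ASO and 6.90 to 7.88 (median 7.34) with PBS. It differed by -0.79 (SE 0.16, adjusted p = 0.00173; -1.05 under the slide block, adjusted p = 0.000677). Within slides 1 and 2 Kcnip4 differed by -1.004 and -0.71. Wwox, an oxidoreductase gene that in human lies at a fragile site (913078 bp), fell by 0.45 (adjusted p = 0.0159; -0.68 under the slide block, adjusted p = 0.00498) and was detected on 6 of 11 control ASO and 8 of 8 PBS arrays. Gpc5, a glypican of astrocytes (1432992 bp), fell by 0.57 without overlap of the groups (adjusted p = 2.73e-06; 0.00248 under the slide block). Fgf12, a growth factor homologue that binds sodium channels (595461 bp), fell by 0.61 (adjusted p = 7.75e-05) and Macrod2 (1997664 bp) by 0.44 (adjusted p = 0.00272). Fam155a (567324 bp), a subunit of the NALCN channel complex, fell by 0.31 (adjusted p = 0.000604) and the calcium channel subunit Cacna2d3 (817833 bp) by 0.19 (adjusted p = 0.0186).

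**Figure D4:**
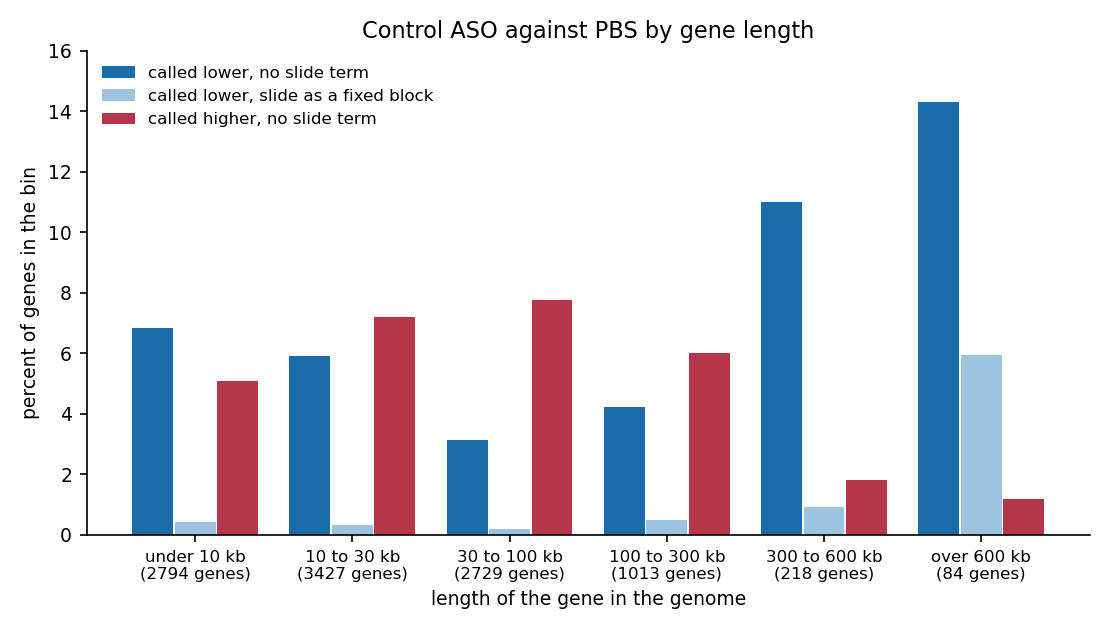
Percent of genes called lower without a slide term, called lower with slide as a fixed block and called higher without a slide term, in 6 bins of gene length (RefSeq, GRCm38.p6), with the number of genes in each bin under the axis. The share called lower is 14.3% over 600 kb, where 5.95% are called lower under the slide block and 1.19% called higher, and 3.15% between 30 and 100 kb.

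Interneuron genes fell in 6 of 12 measured cases (Sst, Npy, Gad1, Slc32a1, Cort and Crhbp) and rose in 0, and 0 passed under the slide block. Leaving out single arrays took the call from Npy in 15 of 19 cases, from Crhbp in 14, from Cort in 8 and from Sst in 0. The list's median was -0.19 (-0.12 under the slide block). The neuropeptide gene Sst was 11.42 to 11.93 (median 11.67) with control ASO and 11.88 to 12.36 (median 12.10) with PBS, and fell by 0.46 (SE 0.12, adjusted p = 0.011; 0.311 under the slide block). Of 18 general neuronal and synaptic genes 2 rose and 2 fell (Nefm and Nefh), and 0 passed under the slide block. There Nefm differed by -0.04 (adjusted p = 0.907), against -0.44 without it. Over all genes 6.5% were called higher and 5.44% lower. Lists of this size would hold a few calls at that share. The counts for the neuronal, hippocampal field and amyloid processing lists therefore say little about those lists. Of 8 measured markers of the hippocampal fields 0 rose and Bok fell (adjusted p = 0.0417), with a second probe at 0.17 and the difference turned to 0.02 under the slide block. App, the gene of the amyloid precursor protein, was 12.24 to 12.84 (median 12.40) with control ASO and 12.55 to 12.88 (median 12.71) with PBS. It fell by 0.25 (SE 0.06, adjusted p = 0.00396; -0.20 under the slide block, adjusted p = 0.0553), and was the 1 called gene of 11 in amyloid processing. In WT hippocampi, without the APP transgene, the probe was 12.49 to 12.74 (median 12.66), near the PBS values. A change of the transgene can therefore not be read from it.

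Gene groups that an ASO might touch are set beside the 11.9% of all genes called, 6.5% higher and 5.44% lower. Some had 0 called members, while ASO uptake and the stress response lay above that share without a slide term. Of 12 measured genes of RNase H and of ASO-binding proteins 0 were called, with a median of 0.02. Of 14 genes of ASO uptake and trafficking 1 rose (Stab1) and 3 fell (Rab5c, M6pr and Tsg101), none under the slide block. Of 13 genes of cholesterol synthesis 0 were called, of 9 NRF2 and iron genes 0, of 12 proliferation genes 0 and of 15 immediate early genes 0. In the unfolded protein and stress response 3 of 20 rose (Xbp1, Pdia4 and Calr) and 4 fell (Chac1, Asns, Dnajb9 and Phgdh), none under the slide block. Each of these lists was measured by limma in the same fit. At the share of all genes, lists of 9 to 15 genes would hold few calls, so 0 called says little about their members. Misses at this size of group do not show equal levels.

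Choroid plexus markers varied widely between arrays. None of 11 measured markers was called (0 in either fit), but their median difference was -1.20, and -0.57 under the slide block. Ttr, the thyroxine carrier made by choroid plexus epithelium, was 11.14 to 14.51 (median 13.29) with control ASO and 12.98 to 14.71 (median 14.52) with PBS, a difference of -1.20 (95% interval -2.14 to -0.26, adjusted p = 0.0848; 0.698 under the slide block). The summed signal of the 11 markers was 3107 to 35514 with control ASO and 9243 to 39924 with PBS. Border macrophages also live in the choroid plexus, and the part of this tissue in the results above was not tested.

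Control ASO and CD33 ASO share the PBS arrays as their partner, so their values are set side by side. With CD33 ASO against PBS 740 probes (4.96%) were called, 3.02% higher and 1.94% lower, and under the slide block 787 (5.27%), 3.01% higher and 2.26% lower. For control ASO and CD33 ASO the differences from PBS were 1.41 and 1.85 for Lgals3, 1.21 and 1.44 for Gpnmb, 1.11 and 1.53 for Wfdc17, -0.96 and -1.38 for Opalin, and -0.67 and -0.70 for Pllp. In the list of complement and Fc receptors the medians were 0.54 and 0.84, with 8 and 9 of 10 genes called higher, and in the interferon list 0.33 and 0.68, with 6 and 18 of 23. In the erythroid list they were -0.77 and -1.03, with 4 genes called lower by each ASO.

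The direct test of control ASO against CD33 ASO called 527 probes (3.53%), 258 higher (1.73%) and 269 lower (1.8%), and 0.757% under the slide block, 53 higher (0.355%) and 60 lower (0.402%). Fcna was 1.21 higher with control ASO than with CD33 ASO (adjusted p = 3.17e-08; 1.03 under the slide block, adjusted p = 7.25e-06), and its mean was 6.68 with control ASO, 5.47 with CD33 ASO and 4.88 with PBS. Czib was 0.71 lower with control ASO (difference -0.71, adjusted p = 9.83e-09; -0.64 under the slide block, adjusted p = 5.95e-06), with means of 8.92 with control ASO, 9.62 with CD33 ASO and 9.61 with PBS. CD33 ASO against PBS gave 0.01 for Czib (adjusted p = 0.961). Aox3 was also lower with control ASO than with CD33 ASO (difference -0.69, adjusted p = 0.0312; 0.049 under the slide block), while the difference of Maf was -0.50 (adjusted p = 0.0508). Fcgr4 was lower with control ASO than with CD33 ASO (difference -1.14, adjusted p = 0.00899; -1.34 under the slide block, adjusted p = 0.00743), and Ifit3 and Ifitm3 differed by -0.52 and -0.43 (adjusted p = 0.0227 and 0.0321; 0.0348 and 0.0302 under the slide block). The interneuron gene Cort was higher with control ASO than with CD33 ASO, by 0.94 (adjusted p = 0.00596; 0.0424 under the slide block).

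**Figure D5:**
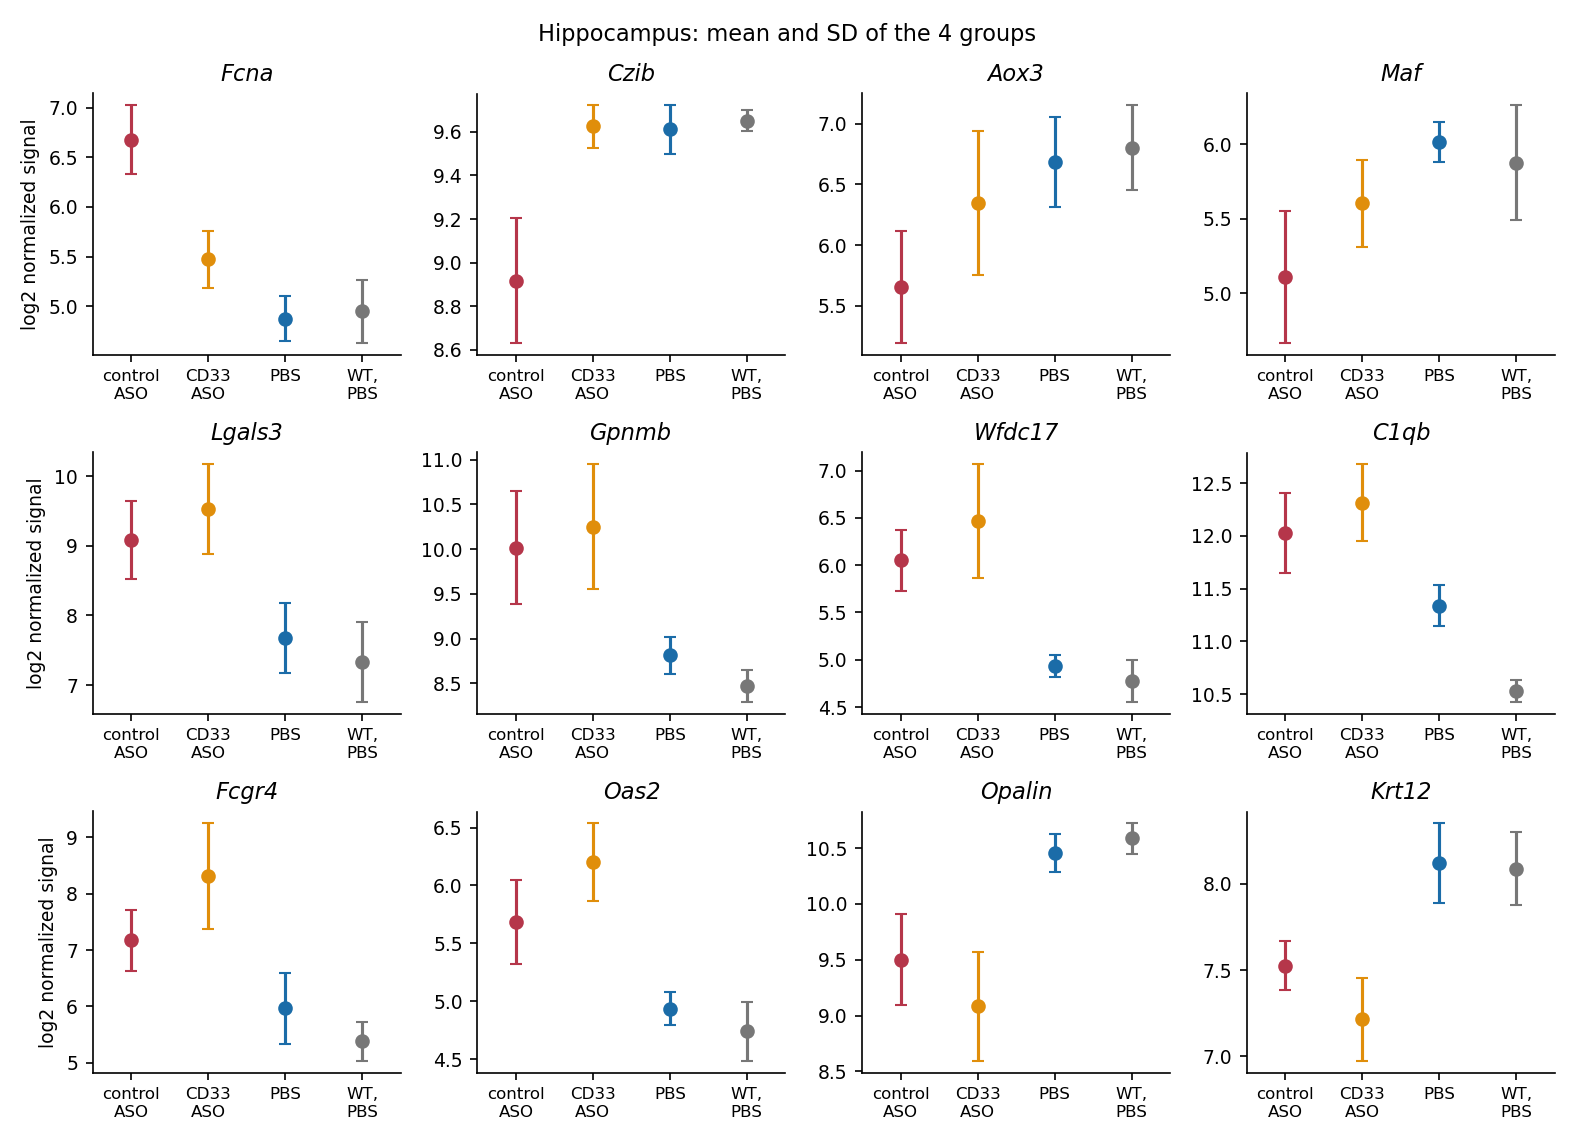
Mean and SD of the log2 normalized signal of 12 genes in the hippocampus with control ASO (n = 11), CD33 ASO (n = 9) and PBS (n = 8) in APP/PS1 mice and with PBS in WT mice (n = 11). Fcna stands highest and Czib lowest with control ASO, whereas Lgals3, Gpnmb, Wfdc17 and Opalin lie on the same side of PBS with both ASOs.

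The frontal cortex of the same animals gave 0.926% of 14581 probes called for control ASO against PBS, 53 higher (0.363%) and 82 lower (0.562%), and 0.871% under the slide block, 56 higher (0.384%) and 71 lower (0.487%). Of 1685 probes called in the hippocampus that passed the cortical filter, 79 were called in the cortex in the same direction. The cortical differences of the leading genes were 2.30 for Plin4 (adjusted p = 4.05e-05), 1.54 for Fcna (adjusted p = 1.61e-09), 1.98 for Lgals3 (adjusted p = 1.38e-05), 1.24 for Gpnmb (adjusted p = 7.33e-05) and 1.13 for Wfdc17 (adjusted p = 4.35e-06). Falls in the cortex were -0.53 for Czib (adjusted p = 4.05e-05), -0.93 for Opalin (adjusted p = 0.000162) and -0.64 for Pllp (adjusted p = 1.16e-05). In the complement and Fc receptor list 0 of 10 genes were called in the cortex, with a median of 0.23, and C1qb differed by 0.17 (adjusted p = 0.738). The difference between the tissues was tested with the animal as a random block, and 31 of 15290 probes (0.203%) passed, 0.0785% higher and 0.124% lower. None of the 136 genes named by rule was among them, C1qb included (difference of 0.52 between the tissues, adjusted p = 0.15), so a larger change in the hippocampus was not shown for these genes.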

How the data were processed

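Bead arrays of the type Illumina MouseRef-8 v2 measured total RNA. Per the file headers, the deposited signals comprise an intensity and a detection p-value for each probe and array. Its intensities had been background-subtracted (21.8% to 26.3% of values of a hippocampal array of these groups lay below 0) and not normalized. A table of log2 values by the authors served as an alternative. BeadStudio, GenomeStudio and Partek are named in the submitters' processing notes, without a role. Work was done in R 4.3.3 with limma 3.58.1. The function neqc (offset of 16) corrected and quantile normalized all 79 arrays. Probes with detection p under 0.05 on at least 8 of the hippocampal arrays were tested, and 14073 of 14923 had a symbol in the platform annotation (17791 of 17800 gene IDs were found in RefSeq). The model had 4 group means, empirical Bayes with an intensity trend and Benjamini-Hochberg adjustment. Genes are represented by their probe of highest mean.

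Members and lists were chosen with earlier results of these data known. Genes named by rule were the 15 largest rises and falls, the 15 largest in each direction among those called in both fits, up to 4 called members of each list (or 2 by mean as values) and 17 fixed genes. The text leaves out part of them. Steps were tested on simulated data. Within a tissue each array is a separate animal by the labels, and the number of arrays limits the precision. Replicate numbers did not pair the groups (correlations of deviations from -0.177 to 0.415). Promoter windows were read in Python 3.11.15, and figures were drawn with matplotlib 3.10.9. Alternatives covered slide, session and replicate blocks, background correction, scaling, offset, filters, array weights, the trend, the authors' table and leaving out arrays.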

Additional observations from a re-analysis of the deposited data

Results flagged for a closer look

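Values of 1 PBS array far from the other 7 were sought in the 136 genes named by rule, and 9 were found, where chance marks about 1 in 20 groups. Marcksl1 was lowest on PBS replicate 1 at 7.424. Ttr was lowest on PBS replicate 2 at 12.98. Cirbp was highest on PBS replicate 4 at 9.993. PBS replicate 5 had the highest Stab1 (6.347) and the lowest Cd79b (4.664) and Nefh (7.772). PBS replicate 6 had the highest H2-T23 (9.29) and Cd74 (10.62), and PBS replicate 7 the highest Syp (14.26). No gene named by rule (0 of 136) passed the test of a difference between hippocampus and cortex.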

How the results depend on the processing

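Of 106 called genes named by rule, 72 kept their call whichever of the 19 arrays was left out, among them Plin4, Fcna, Lgals3, Gpnmb, Wfdc17, Czib and Opalin. The share of probes called, 11.4% (1698), ranged from 7.57% (1129, without PBS replicate 7) to 14.1% (2100, without control ASO replicate 6) when single arrays were left out, and was 7.58% without PBS replicate 8. It was 0.811% with slide as a fixed block, 2.83% with slide as a random block, 17.4% with array weights, and 0.0067% (1 probe) with the control ASO and PBS arrays alone and slide as a fixed block. Without a filter on dim probes 1161 of 25697 probes (4.52%) were called. The 0.811% called with slide as a fixed block became 0.536% (80) without the animals with low Thy1, an alternative chosen after seeing the data. In limma, 31 probes differed between the tissues, and 0 with slide as a fixed block, where 2328 and 898 passed at an unadjusted p under 0.05. For the hippocampal comparison 4016 probes passed at that p without and 1757 with slide as a fixed block. The remaining alternatives called between 1288 probes (without the PBS animal collected early; 1232 without the animals with low Thy1) and 2027 (replicate block). The replicate numbers pair no animals, and the replicate block took the call from 9 named genes. With slide as a fixed block the difference of Bok turned to 0.01985 (0.0153 with both groups alone, 0.06811 without the animals with low Thy1), and with both groups alone those of M6pr and Nefm turned to 0.02501 and 0.01333. Fth1 turned to 0.1749 with median centring. The cause of these changes was not tested. Precision is limited by 11 against 8 arrays over 5 slides, of which 2 hold both groups, and by probes near background, such as those of Maf, Wwox, Fcna and Wfdc17.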
